A study of Homo sapiens with 4 samples.

Results

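The genes described are 9 annotated copies of 3 pluripotency genes, counted in human embryonic stem cells (hESCs) of the naïve and the primed state. They are POU5F1B, POU5F1P3, POU5F1P4 and POU5F1P5, copies of POU5F1, then NANOGP1, NANOGP4 and NANOGP8, copies of NANOG, and DPPA3P1 and DPPA3P2, copies of DPPA3. They were taken by symbol and comprise 10 transcripts of the 244825 counted, in 9 of 62218 genes. The choice was made with their counts in these same libraries known, so their differences between the states are given as a description without a test. Both states came from H1, an established wild-type line, and the naïve hESCs were derived from primed H1 hESCs, so each state stands for 1 cell line. Naïve hESCs were grown in the FINE condition, a medium with kinase inhibitors, and primed hESCs in mTeSR1 on Matrigel. Complementary DNA was sequenced on the Nanopore platform as 4 libraries, 2 replicates per state. The labels do not say that the replicates were separate cultures, so the spread between them may be technical.

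POU5F1 (OCT4) and NANOG are transcription factors that hold pluripotent cells in their undifferentiated state, and DPPA3 (STELLA) is a maternal and germ line factor that protects DNA methylation patterns and is known for its high expression in naïve cells. A processed pseudogene or retrogene is a copy of a spliced mRNA that was reverse transcribed and inserted elsewhere in the genome, so it usually lacks introns. An unprocessed pseudogene arose by duplication of genomic DNA and keeps the exons and introns of its parent. Copies of genes that are active in early embryos are common, because only insertions in germ line precursors are inherited. A read from such a gene can match the parent and its copies nearly equally well, which matters for counts like these.

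The copies are shown first as sequence, because their likeness to the parent bears on where a read can align. The stretches below are coding bases 201 to 280 of each parent (GENCODE release 44, GRCh38) and the bases aligned to them in the copies, 5′ to 3′ on the strand of each gene. Capitals mark bases that differ from the parent.
POU5F1: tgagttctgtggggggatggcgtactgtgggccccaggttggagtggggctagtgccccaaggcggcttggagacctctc
POU5F1P3: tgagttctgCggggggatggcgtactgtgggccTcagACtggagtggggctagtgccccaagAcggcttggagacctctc
POU5F1P4: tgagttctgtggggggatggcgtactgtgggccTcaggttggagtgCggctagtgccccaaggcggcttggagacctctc
NANOG: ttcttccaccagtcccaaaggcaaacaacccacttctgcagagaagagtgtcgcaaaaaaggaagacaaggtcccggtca
NANOGP8: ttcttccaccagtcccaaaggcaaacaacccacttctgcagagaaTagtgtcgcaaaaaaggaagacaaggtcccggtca
NANOGP1: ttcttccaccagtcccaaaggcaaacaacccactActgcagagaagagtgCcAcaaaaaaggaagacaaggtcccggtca
NANOGP4: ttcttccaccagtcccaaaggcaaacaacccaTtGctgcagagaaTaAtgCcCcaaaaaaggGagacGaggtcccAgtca
DPPA3: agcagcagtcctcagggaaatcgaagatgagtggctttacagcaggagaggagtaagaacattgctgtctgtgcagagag
DPPA3P1: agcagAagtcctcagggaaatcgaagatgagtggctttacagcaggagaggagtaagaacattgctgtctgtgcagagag
DPPA3P2: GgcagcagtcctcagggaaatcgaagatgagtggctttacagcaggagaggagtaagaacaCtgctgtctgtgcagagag
These stretches lie, on the strand given after each, at chr6:31170341-31170420 (−) for POU5F1, chr12:8134572-8134651 (−) for POU5F1P3, chr1:155433381-155433460 (+) for POU5F1P4, chr12:7792999-7793078 (+) for NANOG, chr15:35084831-35084910 (−) for NANOGP8, chr12:7895526-7895605 (+) for NANOGP1, chr7:29212500-29212579 (+) for NANOGP4, chr12:7715301-7715380 (+) for DPPA3, chrX:103962009-103962088 (−) for DPPA3P1 and chr14:36371614-36371693 (+) for DPPA3P2. Over these 80 bases, NANOGP8 and DPPA3P1 differed from their parents at 1 base each, POU5F1P4 and DPPA3P2 at 2, NANOGP1 at 3, POU5F1P3 at 5 and NANOGP4 at 9.

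The start of the coding sequence is shown for NANOG and its 2 copies with an aligned start codon, because the reading frame differs there. The stretches start at the atg and lie at chr12:7789615-7789694 (+), chr15:35085031-35085110 (−) and chr12:7892576-7892655 (+).
NANOG: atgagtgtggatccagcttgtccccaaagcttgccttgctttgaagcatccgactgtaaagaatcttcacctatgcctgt
NANOGP8: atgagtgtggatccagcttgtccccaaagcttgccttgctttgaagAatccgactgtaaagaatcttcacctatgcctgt
NANOGP1: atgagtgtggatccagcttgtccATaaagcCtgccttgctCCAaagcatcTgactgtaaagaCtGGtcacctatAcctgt
In NANOGP1 the ninth codon reads taa, a stop codon, and holds the second capital, so its frame from this start closed after 8 codons. The frame of NANOGP8 ran through all 305 codons, the length of the NANOG frame. POU5F1B kept a frame of 359 codons against 360 in POU5F1, and DPPA3P2 had a frame of 158 codons to the end of the annotated copy, against 159 in DPPA3. POU5F1P4 met a stop after 19 codons. The start codon of the parent was not aligned in POU5F1P3, POU5F1P5, NANOGP4 or DPPA3P1.

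Over the whole alignment to the mRNA of the parent, identity was 99.3% for NANOGP8, 98.5% for DPPA3P2, 98.0% for POU5F1P3, 97.8% for DPPA3P1, 97.7% for POU5F1B, 97.3% for NANOGP1, 97.1% for POU5F1P4, 95.2% for NANOGP4 and 86.2% for POU5F1P5. Of the 9 copies, NANOGP1 alone is a duplicate with the exon structure of its parent, with 4 exons on chromosome 12. It is annotated as an unprocessed pseudogene. DPPA3P2 carries the same annotation class, yet it has 1 exon and the DPPA3 mRNA aligned to it without introns. The other members are intronless over the aligned part. NANOGP8 and POU5F1B are annotated as protein coding.

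Alignments were counted over the whole span of every annotated transcript, introns included and strand ignored, once for each transcript overlapped and, by the command recorded in the files, at each place where a read aligned. The totals ran from 129276054 to 161548901 counts per library. With 1 transcript per gene, the isoform with the largest mean count, they ran from 23542380 to 30978794, and a count of 0 then allows up to 3 counts, or 0.0968 to 0.127 CPM (the count relative to the size of its library). Levels below are CPM of these gene counts after scaling by the trimmed mean of M values (TMM). The states were taken from the labels, and the summed levels of their markers differed. The summed level of 8 naïve state markers was 1227 and 1042 CPM for the naïve replicates against 76.7 and 78.3 CPM for the primed ones. For 6 primed state markers it was 2.30 and 2.90 CPM against 166 and 157 CPM, and 4 of the 6 had at most 3 counts in each naïve library. The naïve state markers include the parent DPPA3. All 8 of them had more than 3 counts in primed rep1 and 7 did in primed rep2, where KLF17 alone had a primed mean of 71.8 CPM. Markers of either state, POU5F1, NANOG, SOX2, SALL4 and LIN28A, were above 3 counts in every library. In bulk RNA, fewer cells with a transcript and less of it per cell cannot be told apart.

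The members showed 3 patterns, which went with the family. The POU5F1 copies other than POU5F1P5 had nearly the count of POU5F1 in every library and no separation of the states. The NANOG copies had fewer counts than NANOG and were lower in both primed libraries. The DPPA3 copies had about the count of DPPA3 in naïve hESCs and almost none in primed hESCs. Of the 27632 genes that reached 10 counts in 2 libraries or more, 70.0% passed an adjusted p under 0.05 between the states in edgeR's quasi-likelihood test, and 39.6% had both primed libraries below both naïve ones in TMM CPM. Among the members, 8 of 9 passed this filter and POU5F1P5 did not. Of these 8, 5 had both primed libraries below both naïve ones and 3 had overlapping states. Since the members were chosen on this contrast, these counts carry no weight against the background.

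**Figure D1:**
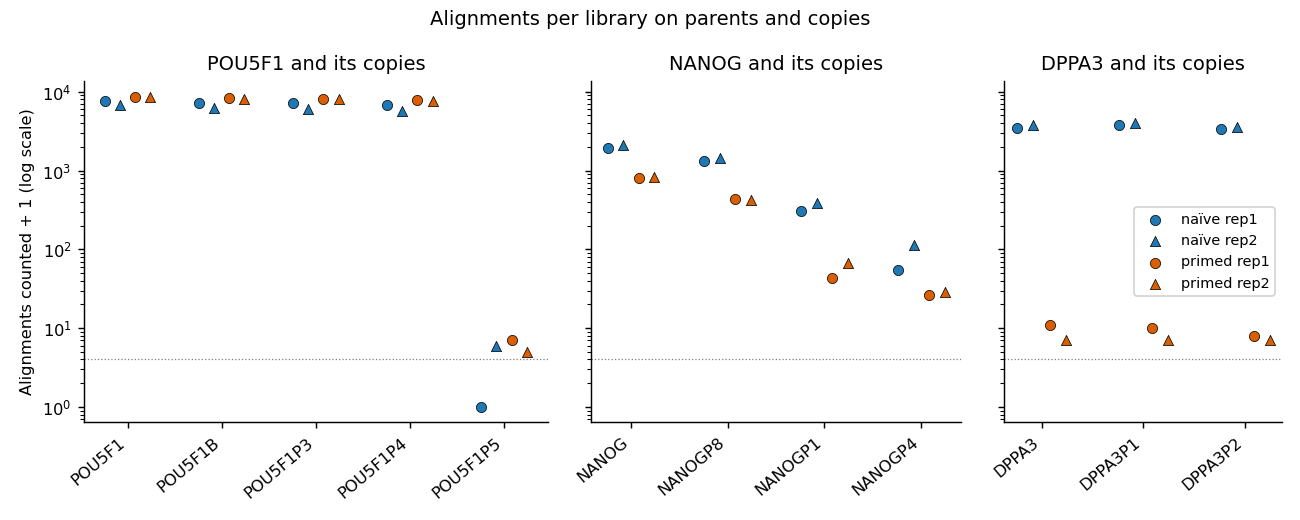
Alignments counted per library, plus 1, on a log axis, for POU5F1, NANOG, DPPA3 and their copies. Blue marks are naïve and orange marks primed libraries, circles are rep1 and triangles rep2, and the dotted line lies at 3 counts; POU5F1, POU5F1B, POU5F1P3 and POU5F1P4 sit between 5771 and 8689, the NANOG copies step down from NANOGP8 to NANOGP4, and the DPPA3 genes lie above 3300 for naïve and at 10 or fewer for primed libraries.

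POU5F1 itself, read on its isoform POU5F1-202, had 7606 and 6709 counts for the naïve replicates against 8689 and 8520 for the primed ones. POU5F1B had 7140 and 6198 against 8348 and 8102. POU5F1P3 had 7131 and 6069 against 8206 and 8007. POU5F1P4 had the lowest values of the 4, with 6779 and 5771 against 7959 and 7707. In all of them naïve rep2 was the lowest library and primed rep1 the highest in raw counts, so the copies repeated the order of the parent library by library. On the TMM scale the states overlapped, at 296 ± 47.2 CPM in naïve and 286 ± 12.2 CPM in primed hESCs for POU5F1 (SD, n = 2). The fitted log2 fold changes, primed over naïve, were -0.05 for POU5F1 (SE 0.143), -0.01 for POU5F1B, -0.02 for POU5F1P3 and 0.00 for POU5F1P4, and with library size in place of TMM they became 0.59, 0.63, 0.62 and 0.65. That scaling moved the median of all genes from 0.08 to 0.72, so on either scale these genes lay close to the median gene.

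As a share of the count of POU5F1 in the same library, which does not depend on scaling, POU5F1B had 93.9% and 92.4% in naïve hESCs and 96.1% and 95.1% in primed hESCs. POU5F1P3 had 93.8% and 90.5%, then 94.4% and 94.0%. POU5F1P4 had 89.1% and 86.0%, then 91.6% and 90.5%. For each of these copies both primed shares were above both naïve shares. This order depends on the isoform taken for the parent, since POU5F1-201 had 7573 and 6676 naïve counts against 8687 and 8517 primed ones. Against POU5F1-201, the shares of POU5F1P3 overlapped between the states. POU5F1P5, a processed pseudogene on chromosome 10 that is shorter and less like the parent, had 0 and 5 naïve counts beside 6 and 4 primed counts, at most 0.0745% of POU5F1. With 0 counts in naïve rep1 and 4 to 6 in the others, no difference between the states was detectable at this depth. Together the 4 copies held 73.5% of the count of the family in naïve rep1 (95% Wilson interval 72.9 to 74.0), 72.9% in naïve rep2 (72.3 to 73.4), 73.8% in primed rep1 (73.4 to 74.3) and 73.7% in primed rep2 (73.2 to 74.1). With counts summed over isoforms, the mean share was 35.1% in naïve and 35.5% in primed hESCs. The Wilson intervals here and below treat every count as independent and leave out variation between libraries. No molecular identifiers were used and 1 read may be counted at several copies. The intervals may thus be narrower or wider than the counting error.

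**Figure D2:**
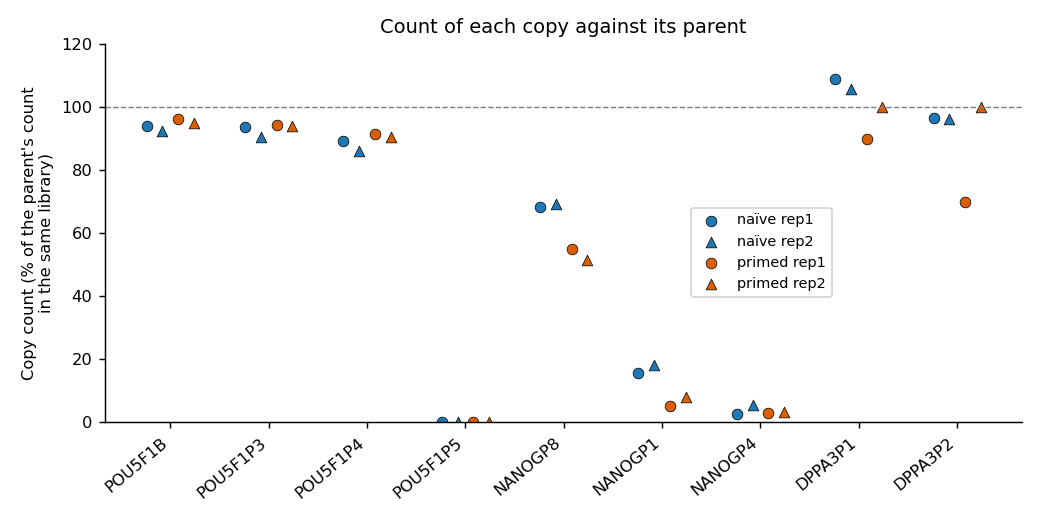
Count of each copy as a percent of the count of its parent in the same library, on a linear axis with a dashed line at 100%. Blue marks are naïve and orange marks primed libraries, circles rep1 and triangles rep2; 3 POU5F1 copies and the naïve DPPA3 copies lie near 100%, NANOGP8 and NANOGP1 have higher shares in both naïve libraries, and the primed DPPA3 points rest on 10 and 6 counts of DPPA3.

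NANOG, read on NANOG-201, had 1955 and 2089 counts for the naïve replicates against 798 and 828 for the primed ones, or 83.2 ± 2.03 CPM against 27.0 ± 0.0741 CPM (SD, n = 2). NANOGP8, the retrogene on chromosome 15 with the complete reading frame, had 1335 and 1448 counts against 439 and 426, or 57.3 ± 0.788 CPM against 14.4 ± 0.721 CPM. NANOGP1, the duplicate on chromosome 12, had 305 and 383 counts against 42 and 66. NANOGP4, a processed pseudogene on chromosome 7, had 53 and 113 counts against 25 and 28. Both naïve libraries were above both primed ones for all 4 genes, with the widest spread between replicates for NANOGP4, whose count was higher in naïve rep2 than in naïve rep1.

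The fitted log2 fold change, primed over naïve, was -1.62 for NANOG (SE 0.147), -1.99 for NANOGP8 (SE 0.153), -1.94 for NANOGP4 (SE 0.309) and -2.97 for NANOGP1 (SE 0.213). NANOGP1 thus had the largest ratio between the states in this family, 7.89-fold higher in naïve hESCs in mean TMM CPM, against 3.08-fold for NANOG. The direction was the same with library size in place of TMM, at -0.98 for NANOG, -1.35 for NANOGP8, -1.31 for NANOGP4 and -2.34 for NANOGP1. NANOGP4 rested partly on naïve rep2, and without that library its value was -1.38.

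NANOGP8 had 68.3% and 69.3% of the NANOG-201 count among naïve libraries, then 55.0% and 51.4% among primed ones. NANOGP1 had 15.6% and 18.3% in naïve hESCs and 5.26% and 7.97% in primed hESCs. For both, the naïve shares were above the primed shares without overlap, so these copies did not keep a fixed ratio to their parent across the states. NANOGP4 had 2.71% and 5.41% of NANOG in naïve hESCs and 3.13% and 3.38% in primed hESCs, and the primed values lay between the naïve ones. The 3 copies together held 46.4% and 48.2% of the family count among naïve libraries (Wilson intervals 44.8 to 48.0 and 46.7 to 49.7) and 38.8% and 38.6% in the primed libraries (36.2 to 41.5 and 36.0 to 41.2). With counts summed over isoforms, the mean shares were 24.7% and 19.5%.

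NANOG-201 is longer than its copies, and part of its span has no counterpart in them. NANOG-202, a shorter isoform inside it, had 1144 and 1223 counts for the naïve replicates against 451 and 432 for the primed ones. The alignments over NANOG-201 that missed the span of NANOG-202 were 811 and 866 against 347 and 396, that is 41.5% of NANOG-201 for each naïve replicate, then 43.5% and 47.8% for the primed ones. Against NANOG-202, NANOGP8 had 117% and 118% for the naïve replicates against 97.3% and 98.6% for the primed ones. The count of NANOGP8 was thus above that of NANOG-202 in both naïve libraries and just under it in both primed ones, and the shares again did not overlap between the states. The spans are unlike, since NANOGP8-201 aligned to NANOG at chr12:7789430-7795875, past both ends of NANOG-202 (chr12:7789615-7795095). Within NANOGP8, the transcript ENST00000629403 had 1045 and 1092 counts for the naïve replicates against 366 and 360 for the primed ones. These counts lay below NANOG-202 in every library, and how much the unlike spans add to the shares was not tested.

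DPPA3 had 3469 and 3745 counts for the naïve replicates against 10 and 6 for the primed ones, or 148 ± 2.54 CPM against 0.267 ± 0.102 CPM (SD, n = 2). DPPA3P1, a processed pseudogene on the X chromosome, had 3773 and 3957 counts against 9 and 6. DPPA3P2, on chromosome 14, had 3349 and 3609 counts against 7 and 6. All 3 were thus near the limit of detection in primed hESCs. The fitted log2 fold changes were -9.10 for DPPA3 (SE 0.248), -9.29 for DPPA3P1 (SE 0.249) and -9.34 for DPPA3P2 (SE 0.251), which lie within 1 SE of each other.

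DPPA3P1 had 108.8% and 105.7% of the DPPA3 count in the naïve libraries, an excess of 304 and 212 alignments over the parent. In the primed libraries it had 1 fewer alignment than DPPA3 and the same number. DPPA3P2 had 96.5% and 96.4% in the naïve libraries. Its primed counts were 7 beside 10 of DPPA3 and 6 beside 6, and such shares cannot be ordered against the naïve ones. The copies held 67.2% of the family count in naïve rep1 and 66.9% in naïve rep2 (Wilson intervals 66.3 to 68.1 and 66.0 to 67.8). In the primed libraries the shares were 61.5% of 26 counts and 66.7% of 18 counts, with intervals of 42.5 to 77.6 and 43.7 to 83.7.

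Per length, levels are given as TMM CPM per kilobase of exon of the transcript counted. The order on this scale rests on the annotated lengths, since whole alignments were counted and not bases. DPPA3P1 is annotated with 469 bases and DPPA3 with 1100, although their naïve counts were similar and DPPA3-201 aligned beyond the annotated ends of the copy. In naïve hESCs, DPPA3P1 was at 339 ± 12.7 CPM per kilobase and DPPA3P2 at 300 ± 5.50 (SD, n = 2). POU5F1 at 281 ± 44.7, POU5F1P3 at 254 ± 46.7 and POU5F1P4 at 239 ± 44.1 followed, and these 3 did not differ beyond their spread. The range of mean ± SD of DPPA3P2 overlapped those of POU5F1 and POU5F1P3 but not that of POU5F1P4. DPPA3 at 135 ± 2.31 and POU5F1B at 131 ± 22.4 also lay within their spread of each other. The NANOG family came lower, with NANOGP8 at 30.4 ± 0.418, NANOG at 16.1 ± 0.391, NANOGP1 at 15.4 ± 1.38 and NANOGP4 at 3.68 ± 1.65 CPM per kilobase, where NANOG and NANOGP1 overlapped. POU5F1P5 was last at 0.149 ± 0.210.

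In primed hESCs the order on the same scale was POU5F1 at 271 ± 11.6, POU5F1P3 at 250 ± 11.6, POU5F1P4 at 240 ± 12.4 and POU5F1B at 130 ± 6.51 CPM per kilobase. NANOGP8 at 7.63 ± 0.382, NANOG at 5.22 ± 0.0143, NANOGP1 at 1.95 ± 0.560 and NANOGP4 at 0.964 ± 0.0494 followed. DPPA3P1 at 0.534 ± 0.166, DPPA3P2 at 0.453 ± 0.0622, POU5F1P5 at 0.254 ± 0.0788 and DPPA3 at 0.243 ± 0.0925 came last. Among these, neighbours overlapped in mean ± SD except DPPA3P2 and POU5F1P5, and all rest on few counts. A long transcript such as POU5F1B-202 or NANOG-201, of which the copies resemble a part only, takes a low value per kilobase by its length.

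The annotation holds 20 further genes named as copies of these parents, and all had lower mean counts than every member but POU5F1P5. The most abundant was NANOGP7, with 18 and 41 counts for the naïve replicates against 7 and 5 for the primed ones. NANOGP9 had 19 per naïve library against 4 and 5, and NANOGP10 had 12 and 18 against 11 and 4. These were the 3 of the 20 that passed the filter on low counts. NANOGP2, NANOGP5, NANOGP11, DPPA3P5, DPPA3P6 and POU5F1P6 had at most 6 counts in any library. The other 11, DPPA3P3, DPPA3P7, DPPA3P8, DPPA3P9, DPPA3P10, DPPA3P11, DPPA3P12, NANOGP3, NANOGP6, POU5F1P2 and POU5F1P7, had 0 counts in all 4 libraries, which allows up to 3 counts in each. Their identity to the parent was at most 85.5%. Among all 29 copies, the 8 with at least 95% identity were the 8 members other than POU5F1P5, and NANOGP7 came next at 94.8%. Identity was not used to choose the members, but a read can be aligned to a copy only where the sequences are alike.

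**Figure D3:**
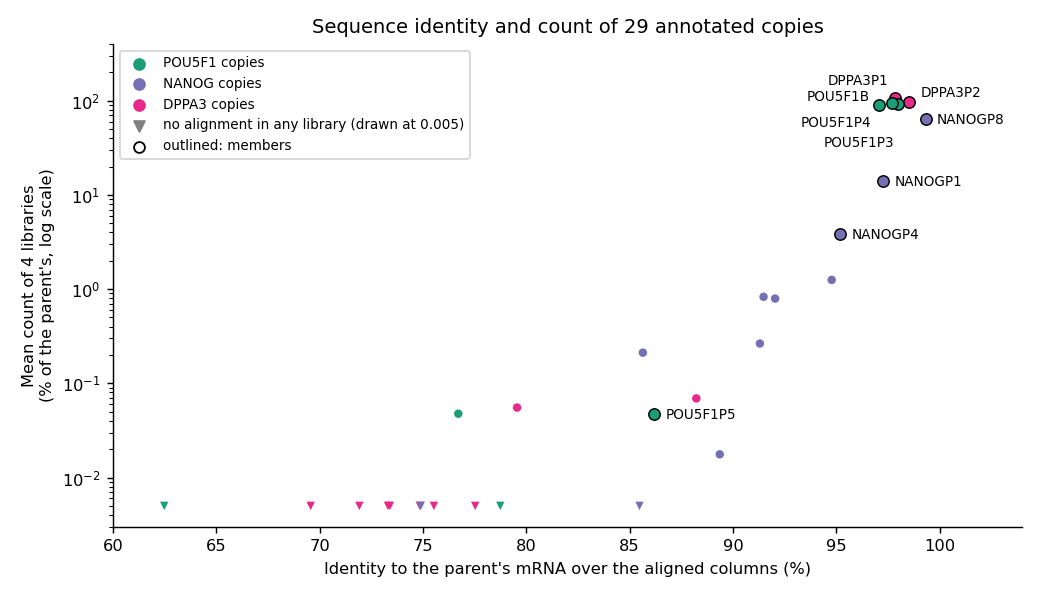
Mean count over the 4 libraries as a percent of that of the parent, on a log axis, against the identity of the copy to the mRNA of its parent over the aligned columns, for 29 annotated copies. Colours mark the family, outlined points the 9 members, and triangles at the bottom the copies without an alignment; copies above 97% identity lie above 10% of the parent, and POU5F1P5 at 86.2% identity lies among the copies outside the members.

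To see where the sequences themselves can align, the annotated transcript sequences were aligned to GRCh38 with minimap2 in its spliced mode, the aligner and mode that the study used for its reads, in a later version. POU5F1-201 aligned at POU5F1 with a score of 1276 and also at POU5F1B with 1279, at POU5F1P3 with 1275 and at POU5F1P4 with 1243. POU5F1-202, the isoform whose count stands for the gene, aligned at POU5F1 with 922, at POU5F1P3 with 886 and at POU5F1B with 876, and was not reported at POU5F1P4. POU5F1-205 and POU5F1-207 reached POU5F1P3 alone among the copies, and POU5F1-203, POU5F1-204 and POU5F1-206 reached none. No POU5F1 transcript was reported at POU5F1P5. An alignment across introns loses score at each intron, so an intronless copy with some mismatches can score as high as the gene itself. DPPA3-201 aligned at DPPA3 with 1001, at DPPA3P2 with 1010 and at DPPA3P1 with 968. With NANOG read on NANOG-201, the 5 copies reached by POU5F1-201 or DPPA3-201 were the members with counts nearest to those of their parents. Against NANOG-202, NANOGP8 had 97.3% and 98.6% for the primed replicates, nearer than POU5F1P4 to POU5F1 at 91.6% and 90.5%. Whether shared alignment accounts for these counts was not tested.

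Of the NANOG transcripts, 2 of 4 reached a copy, against 4 of 7 for POU5F1. NANOG-202 aligned at NANOG with a score of 774 and at NANOGP8 with 816, and NANOG-203 with 526 and 510. NANOG-201 and NANOG-204 were reported at NANOG alone. No NANOG transcript was reported at NANOGP1 or NANOGP4. In the other direction, the sequence of NANOGP1 aligned at its own locus with 816, at NANOGP8 with 841 and at NANOG with 750, and that of NANOGP4 at its own locus alone. Among the NANOG members, those that NANOG transcripts did not reach had the smallest shares of the NANOG count. Whether the alignments account for these shares was not tested.

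DPPA3P1 has an exact duplicate on the same chromosome. Its 469 bases matched without a difference at chrX:104076584-104077052 on the opposite strand, where no annotated copy of these parents lies, and DPPA3-201 scored 968 there as well. An alignment placed there adds to no count of these parents or copies, and whether another counted transcript lies there was not tested. Sequences of annotated transcripts carry no sequencing errors, and how many reads were placed at each locus was not tested, since the tables do not separate the alignments of a read. RNA from a copy and RNA from its parent cannot be told apart by these counts.

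**Figure D4:**
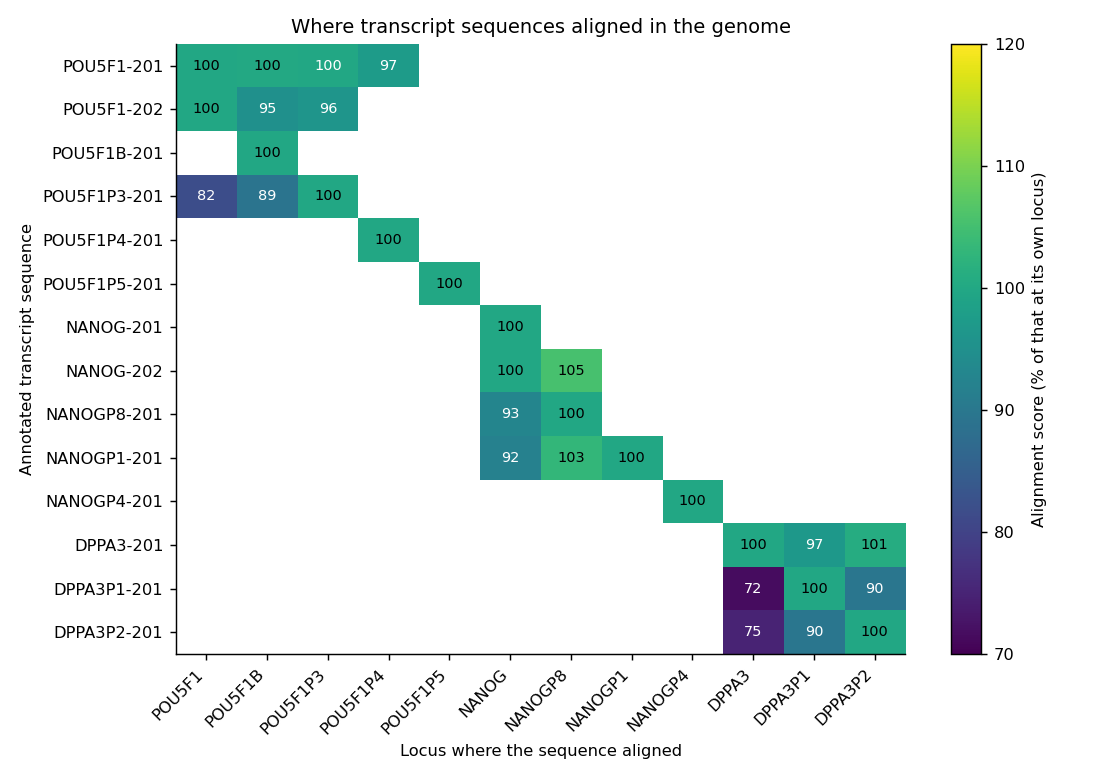
Score of each reported alignment of an annotated transcript sequence (rows) at each locus (columns), as a percent of its score at its own locus, with empty cells where none was reported. POU5F1-201 reaches 3 copies, POU5F1-202 reaches 2 of them, DPPA3-201 reaches both of its copies at 97% to 101%, NANOG-202 reaches NANOGP8 above its own score, and no parent transcript reaches POU5F1P5, NANOGP1 or NANOGP4.

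Most members lie inside the span of another gene, and since introns and both strands were counted, their alignments also count for that gene. POU5F1P4 lies in the antisense orientation inside 11 isoforms of ASH1L, a histone methyltransferase gene. The highest of these had 7642 and 6745 counts for the naïve replicates against 9100 and 9166 for the primed ones, where POU5F1P4 had 6779, 5771, 7959 and 7707. The 6 ASH1L isoforms that do not overlap POU5F1P4 had at most 650, 669, 659 and 877 counts. POU5F1P3 lies inside all 5 isoforms of CLEC4A, a lectin receptor gene of myeloid cells, which had 7360, 6388, 8491 and 8350 counts at the highest. No CLEC4A isoform is free of the pseudogene, so no count of CLEC4A apart from it is to be had.

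The POU5F1B locus on chromosome 8 lies inside 3 isoforms of CASC8, a long noncoding RNA gene, which had up to 7549, 6581, 9072 and 8828 counts. The 1 CASC8 isoform that does not overlap it had 4, 2, 5 and 4 counts. DPPA3P1 lies inside TMSB15B-201, an isoform of a thymosin gene, with 3847 and 4041 counts in naïve and 188 and 213 in primed hESCs. The 5 TMSB15B isoforms without it had at most 39 and 42 counts in naïve and 152 and 168 in primed hESCs. The direction between the states was thus the opposite for the isoforms that do not hold the pseudogene. For DPPA3P2, the enclosing noncoding transcript ENSG00000290759 had 3363 and 3630 counts for the naïve replicates against 7 and 6 for the primed ones, of which DPPA3P2 made up nearly all.

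NANOGP1 lies inside the noncoding transcript ENSG00000290484 on the same strand, which had 400 and 473 counts for the naïve replicates against 57 and 79 for the primed ones, so that NANOGP1 had 78.9% of its mean count. NANOGP4 lies in 5 isoforms of CHN2, a gene for a regulator of Rac. These had 79 to 112 and 177 to 204 counts across the naïve replicates, then 99 to 225 and 139 to 286 across the primed ones. CHN2 isoforms away from NANOGP4 had up to 19 and 38 counts across the naïve replicates and up to 84 and 78 across the primed ones. The highest count among CHN2 isoforms without the pseudogene was thus larger in both primed libraries, the opposite of NANOGP4. Another transcript on the same strand encloses NANOGP4, ENST00000644824, which had no match in GENCODE release 44 and so no symbol. It had 1117 and 1072 naïve counts beside 676 and 672 primed counts, above every CHN2 isoform and, like NANOGP4, higher in the naïve libraries. POU5F1P5 lies inside 6 isoforms of HERC4, a ubiquitin ligase gene, and its mean count over the libraries was under 1% of that of each. Since strand was ignored, unspliced RNA of a host gene that crosses a copy adds to the count of the copy, and how much it added was not tested.

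**Figure D5:**
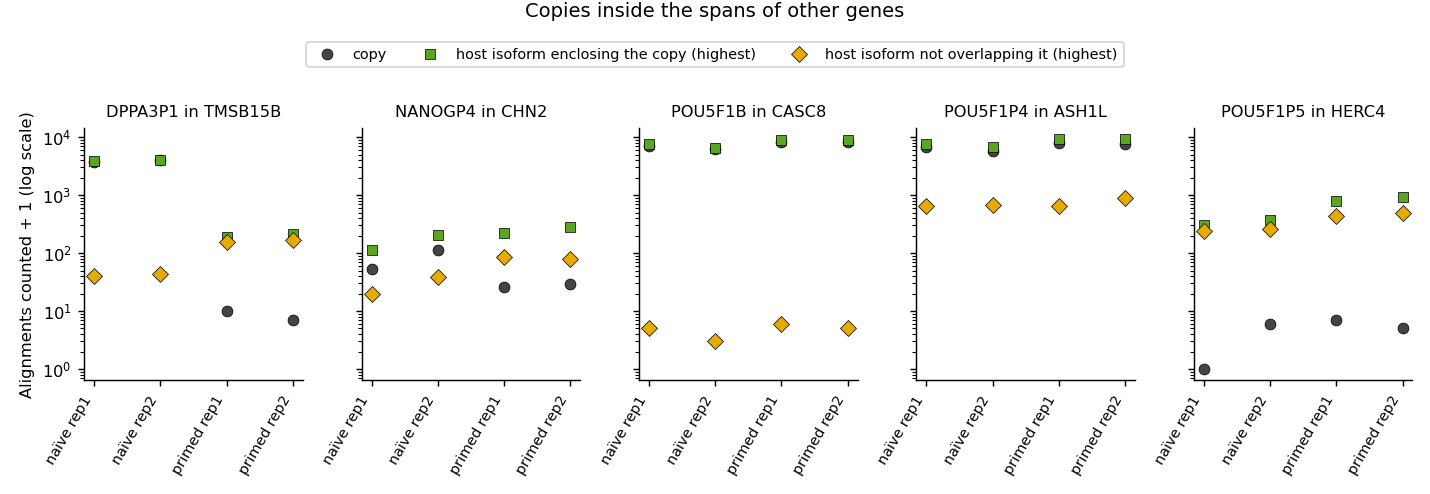
Alignments counted per library, plus 1, on a log axis, for 5 copies, the highest isoform of the gene that encloses each of them, and the highest isoform of that gene that does not overlap the copy. In ASH1L, CASC8 and naïve TMSB15B the enclosing isoform follows the copy and the other isoforms lie far lower, while POU5F1P5 in HERC4 is far below both.

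The genes whose pattern was most like each member were found by the distance between centred log2(CPM + 0.5) values over the 4 libraries, which is a description of 4 points and not of shared control. The nearest gene outside the family was PCAT1 for POU5F1B, whose span overlaps it, and POLR2M for POU5F1P4. It was ENSG00000290759 for both DPPA3P1 and DPPA3P2, the transcript that encloses the latter. NANOGP8 was nearest to SCHLAP1, NANOGP1 to ESAM and NANOGP4 to H2AC12. Among 27631 other genes, the parent ranked 3 for DPPA3P1 and DPPA3P2, 15 for POU5F1B, 16 for POU5F1P3 and 29 for POU5F1P4. For the NANOG copies it ranked 640 for NANOGP8, 1286 for NANOGP4 and 1474 for NANOGP1. By this rank the POU5F1 and DPPA3 copies lay nearer to their parents than the NANOG copies did. The members were chosen with these values known, so the ranks are a description only. Every primed level of DPPA3, DPPA3P1 and DPPA3P2 was below the added 0.5 CPM, which shortens their distances. NANOG was read on NANOG-201, part of which has no counterpart in the copies.

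The wider pluripotency programme was examined through 3 gene lists, chosen with earlier results of these data known and without the 3 parents. Of 18 shared pluripotency genes tested, 12 were higher and 3 lower in primed hESCs at an adjusted p under 0.05 in edgeR's quasi-likelihood test, where 37.4% and 32.6% of all genes tested were called in these directions (10327 and 9007 genes). With library size in place of TMM the split over all genes was 15524 higher and 4511 lower, and 14 and 2 over this list. The median log2 fold change was 0.97, against 0.08 over all genes. The largest rises were in PODXL, a surface sialomucin (4.97, SE 0.179, adjusted p = 8.99e-27), TERT, the catalytic subunit of telomerase (2.98), and SOX2, the partner of OCT4 on DNA (2.38). GDF3, a TGF-beta family ligand next to the DPPA3 and NANOG loci (-2.95), LIN28B, which blocks let-7 maturation (-1.94), and DPPA2 (-0.81) fell, each with an adjusted p of 0.000439 or less in that edgeR test. POU5F1 and its abundant copies, at -0.05 to 0.00, therefore lay away from the median of this list, while NANOG and its copies lay on the side of GDF3.

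All 15 tested genes of the naïve state list were lower in primed hESCs, with a median of -5.83. KHDC1L went from 27211 and 26908 naïve counts to 4 and 2 primed counts, DNMT3L, a cofactor of DNA methyltransferases, from 4540 and 3798 to 4 and 2, and DPPA5 from 16741 and 15306 to 51 and 43. KLF17 was lower by the least (-0.41, adjusted p = 0.0107), and with library size in place of TMM its value was 0.23 (adjusted p = 0.114; 0.00207 to 0.114 over all alternatives). The DPPA3 family lay beyond this median. All 17 genes of the primed state list were higher in primed hESCs, with a median of 6.94. THY1, SFRP2 and FZD7, a surface glycoprotein, a Wnt antagonist and a Wnt receptor, had 0 counts in naïve rep1 and rep2. Their mean levels in primed hESCs were at least 528-fold, 426-fold and 178-fold higher, against 3 counts per naïve library. The primed replicates of FZD7 were far apart, at 398 and 937 counts.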

How the data were processed

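RNA of H1 naïve and primed hESCs was sequenced as Nanopore cDNA, 2 libraries for each state. Reads were aligned by the authors with minimap2 2.17-r941 in spliced mode against GRCh38, and they deposited raw counts per transcript of Ensembl release 105, made with featureCounts 2.0.0 with the options -L, -O and -M per the file headers. The methods of the study give -O and -L without -M, for a count matrix on another annotation. With -M, secondary alignments are counted, and the file headers were followed here. The values are counts of alignments over whole transcript spans, without normalization. No column belonged to other samples (0).

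Symbols came from GENCODE release 44 by transcript identifier (242542 of 244825, of which 97.9% had the same coordinates; the rest, with 1.0% of the counts, was not used). A gene took the count of its isoform with the largest mean. Genes that reached 10 counts in 2 libraries or more were fitted with edgeR 4.0.16 in R 4.3.3 (TMM, quasi-likelihood, state as the only term, all 4 libraries, two-sided, Benjamini-Hochberg over all 27632 genes). Its p-values measure the spread between these libraries only. The fit was tested on simulated data. The p-values of members and parents were not used.

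Copies were aligned locally to POU5F1-201, NANOG-201 and DPPA3-201 in Biopython 1.88 (match 2, mismatch -3, gap -6 and -1). Transcript sequences were aligned to hg38 with minimap2 2.31. Tables were handled with pandas 2.3.3 and intervals made with scipy 1.17.1.

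The members and gene lists were chosen with earlier results of these data known. The genes named are the members, parents, other copies by symbol, genes that overlap them, the 3 largest called changes per list and direction, and the 3 nearest genes in pattern, of which the first is printed, except for POU5F1P3, where it is not reported here. KLF17 was named after its value was seen. Of the naïve state list, 1 symbol was not matched. Alternatives were library size in place of TMM, DESeq2 1.42.0, no count filter, at least 50 counts, counts summed over isoforms, the replicate number as a block, each library left out, and copies over the parent alone.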

Additional observations from a re-analysis of the deposited data

How the results depend on the processing

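The total numbers of genes called, over all genes and per list, stayed within 1.5 times of the value given under every alternative run, but not the split by direction, which went from 10327 higher and 9007 lower to 15524 and 4511 with library size in place of TMM. Over all genes they ran from 13804 of 18954 with at least 50 counts to 21141 of 50139 without a count filter, with 16212 by DESeq2, 20035 with library size, 18583 with summed isoforms and 17314 to 17870 with a library left out, where the lone library of a state is assumed to vary like the other state. The shared pluripotency list had 11 to 14 genes higher and 2 to 4 lower, the naïve state list 14 or 15 lower and the primed state list 17 higher.

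The replicate number as a block gave 19688 calls in place of 19334. The deviations of same-numbered libraries correlated at 0.0593 over 27632 genes, and with 2 pairs this does not establish pairing.

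The values of the POU5F1 family were near 0 and changed sign with the setting. With at least 50 counts they were 0.05 for POU5F1, 0.09 for POU5F1B, 0.08 for POU5F1P3 and 0.10 for POU5F1P4, and POU5F1P4 was -0.05 by DESeq2. With a library left out they ran from -0.21 to 0.12, -0.18 to 0.17, -0.20 to 0.18 and -0.18 to 0.20. NANOG, DPPA3 and their copies kept their direction under every alternative run, and with a library left out NANOGP4 ran from -2.33 to -1.38 and NANOGP1 from -3.30 to -2.71.

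Shares on copies depend on the denominator. Over the parent alone, the copies summed to 273% and 281% in naïve and primed hESCs for POU5F1, 89.8% and 63.1% for NANOG and 204% and 180.0% for DPPA3. With isoforms summed, which counts an alignment several times in a parent, the copies held 35.1% and 35.5% of the POU5F1 family and 24.7% and 19.5% of the NANOG family. In primed hESCs, 10 and 6 counts of DPPA3 limit every ratio in that family.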
